A study of Mus musculus with 6 samples.

Results

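Respiratory complex I is encoded by nuclear genes, by mitochondrial DNA, and by nuclear genes for factors that put its parts together. Its mRNAs were compared between RSL3-treated and DMSO-treated N2a cells. Every row of the mRNA tables whose symbol begins with Nduf or mt-Nd was taken, which gave 53 of 11609 genes. Of these, 38 are named as nuclear subunits (Ndufa, Ndufb, Ndufc, Ndufs and Ndufv), 8 as assembly factors (Ndufaf) and 7 are mitochondrially encoded (mt-Nd). N2a is a mouse neuroblastoma line. All cells had been differentiated toward neurons with 10 µM retinoic acid for 96 h in medium with 2% serum. The 3 RSL3 libraries came from such cells after 24 h with 5 µM RSL3, which inhibits the lipid peroxide-reducing enzyme GPX4 and so induces ferroptosis. The 3 DMSO libraries came from cells given the solvent alone. The labels do not say that the 3 libraries of a treatment stem from separate cultures, so p-values measure only the spread between these libraries.

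Complex I takes electrons from NADH, passes them along a chain of iron-sulfur clusters to ubiquinone, and pumps protons across the inner mitochondrial membrane. An arm in the matrix holds the N module, which oxidises NADH, and the Q module, which reduces ubiquinone. The membrane arm holds the proton pumps, built around the mitochondrially encoded subunits and joined from parts named ND1, ND2, ND4 and ND5 modules. Core subunits carry out the reaction and are conserved down to bacteria, while accessory subunits surround them and hold the complex together. Neurons depend on this complex for much of their ATP, and it is a source of superoxide.

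Values are FPKM, fragments scaled to transcript length and library size, as deposited by the authors. Fold changes are RSL3 minus DMSO on the log2(FPKM + 1) scale, which understates the change of low genes, and carry the fit's standard error (SE). The test was limma over the 10590 genes that reached 1 FPKM in 3 or more libraries, two-sided, with Benjamini-Hochberg adjustment over all of them and a threshold of 0.05. Of the 53 complex I genes, 52 entered the test. The exception was Ndufa4l2, at 0.701, 0.864 and 0.667 FPKM in the RSL3 libraries, against 0.672, 0.512 and 1.07 FPKM in the DMSO libraries.

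Some features of whole libraries bear on these values. The summed mRNA FPKM were 200135 to 213765 in the RSL3 libraries and 220605 to 225295 in the DMSO libraries. The median log2 fold change of all tested genes was -0.031. Across genes, the deviation of RSL3 replicates 1, 2 and 3 from their group mean correlated with transcript GC content at 0.64, -0.60 and -0.23; the 3 deviations sum to 0. Of 14 neuronal and sympathoadrenal markers 12 were listed, and they summed to 334 to 380 FPKM with RSL3 and 412 to 419 FPKM with DMSO. Tubb3 stood at 113 to 117 FPKM with RSL3 and 115 to 117 FPKM with DMSO, while Map2 was at most 2.59 FPKM in any library and Nefl and Nefm were not listed. Of 9 liver markers all were listed, at 14.5 to 25.8 FPKM summed with RSL3 and 59.6 to 83.7 FPKM with DMSO. Of the 4 astrocyte markers none was listed, and the fibroblast, microglia, oligodendrocyte and endothelial lists each summed to at most 7.20 FPKM in any library. The lncRNA genes Gm26917 and Gm42418, which hold ribosomal RNA sequence, summed to 26639 to 33129 FPKM with RSL3 and 18793 to 22979 FPKM with DMSO. The part of these differences in the complex I values was not tested. In bulk RNA, fewer cells of a type and less RNA per cell cannot be told apart.

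The nuclear subunit genes stood slightly lower with RSL3 as a group, at most 0.51 below DMSO on the log2 scale. Of 37 tested, 4 fell and 0 rose, which is 10.8% falling. Of all tested genes 6.38% passed, 3.92% falling and 2.46% rising. Their median log2 fold change was -0.21, and 33 of the 37 values lay below 0 (89.2%, against 56.4% of all tested genes). In 15 of them every RSL3 library lay below every DMSO library (40.5%), and in 0 above. Over all tested genes these shares were 19.6% and 13.4%. When libraries were scaled to equal sums of nuclear-encoded mRNA or quantile normalized, 24 and 25 of the 37 lay below 0 and 2 fell in each. Those scalings also turned the split of all genes, to 279 falling and 491 rising with equal sums and 329 and 350 after quantile normalization, against 415 and 261 without them. With trends of each library with transcript length and GC content removed, 23 of the 37 lay below 0 (62.2%, against 49.5% of all genes), 6 fell and the median was -0.090. The group median stayed below that of all genes under every setting run, by 0.092 to 0.209. The number that fell was 7 without RSL3 replicate 1, 7 without RSL3 replicate 2, and 0 without RSL3 replicate 3 or without any single DMSO replicate. Of all tested genes 7.18% and 4.14% fell in the first 2 of these fits, and 0.799% to 1.25% in the other 4.

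**Figure D1:**
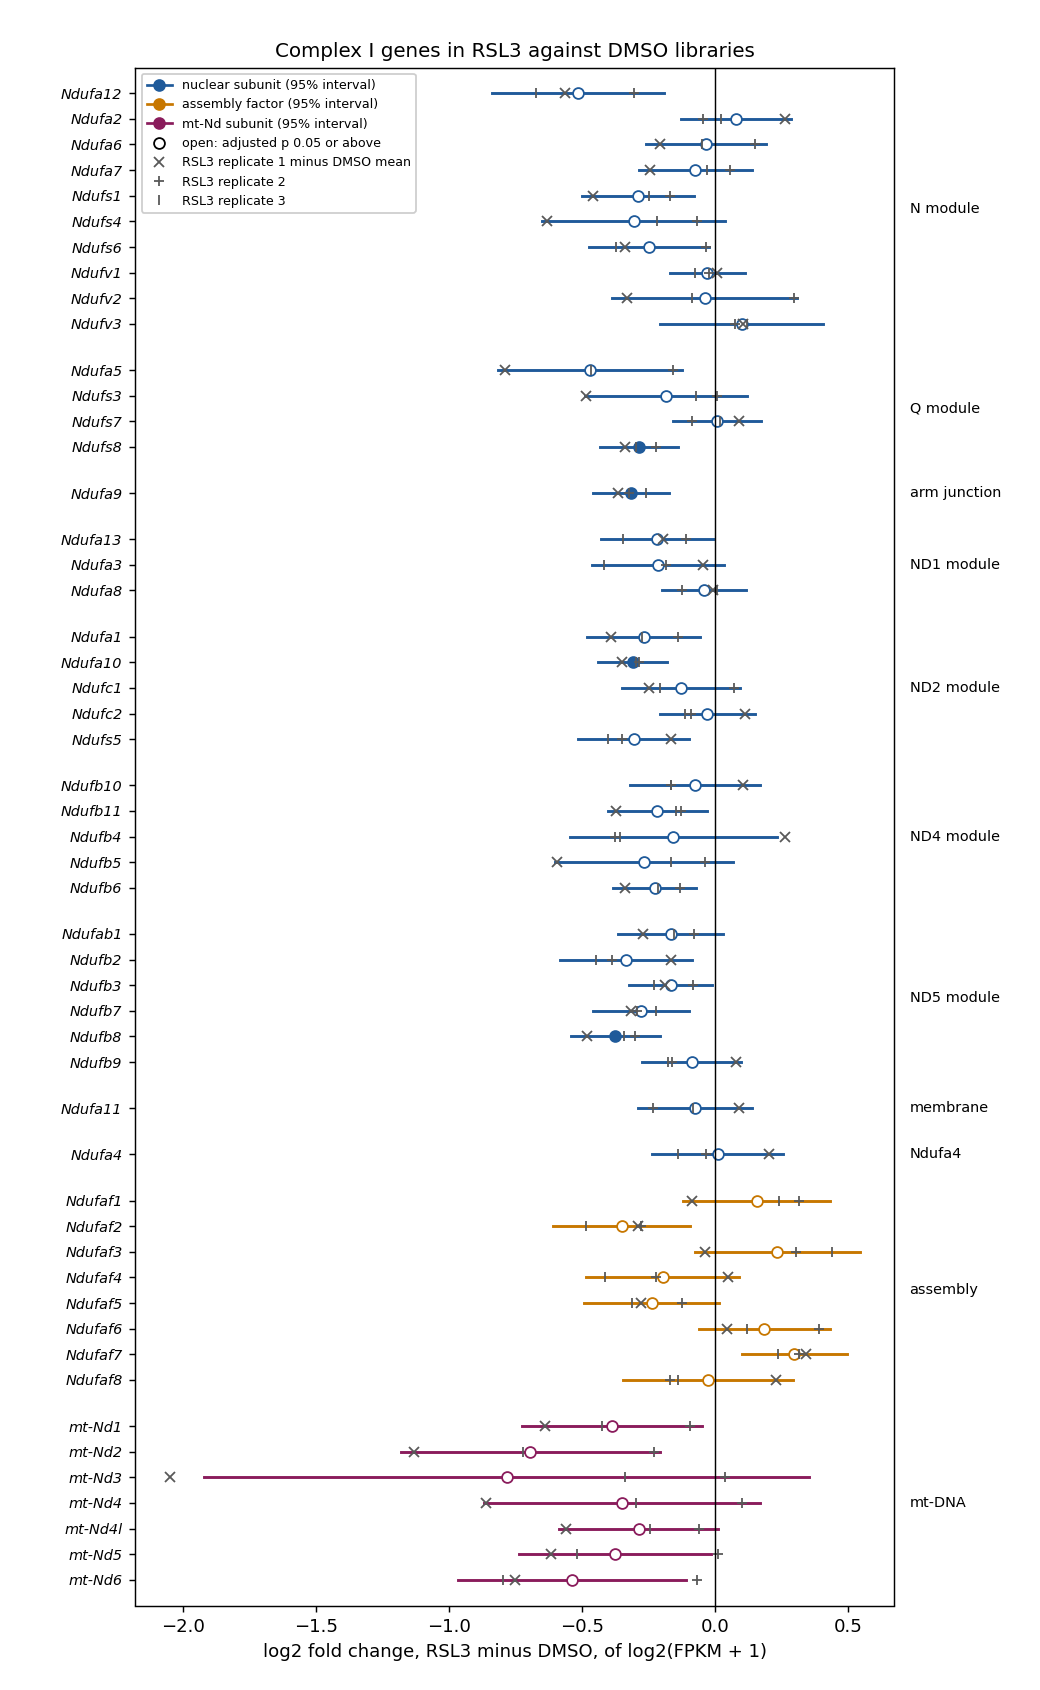
Log2 fold change (RSL3 minus DMSO, of log2(FPKM + 1)) of all but 1 of the 52 tested complex I genes, ordered by module, with 95% confidence intervals of the limma fit and the deviation of each RSL3 library from the DMSO mean as crosses, plus signs and ticks. Filled circles mark the 4 genes at an adjusted p under 0.05; most nuclear subunits and 7 of 7 mt-Nd genes lie left of 0, while the 8 assembly factors are split 4 and 4.

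The 4 genes that fell come from different places in the complex. Ndufb8 (ENSMUSG00000025204.10, chromosome 19, 44548572 to 44555440, minus strand, GENCODE M21 on GRCm38) encodes an accessory subunit of the ND5 module at the far end of the membrane arm. It stood at 14.0, 16 and 15.5 FPKM in the RSL3 libraries, against 19.9, 20.4 and 19.4 FPKM in the DMSO libraries. The groups did not overlap, and RSL3 replicate 1 was the lowest library. Its log2 fold change was -0.37 ± 0.07 SE (adjusted p = 0.0273). The annotation shares 134 exon bases of Ndufb8 with Gm20538, a gene on the same strand that is not in the mRNA tables.

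Ndufa9 (ENSMUSG00000000399.10, chromosome 6, 126821721 to 126849136, minus strand) encodes the subunit that sits where the matrix and membrane arms meet and binds NADPH. It stood at 42.1, 43.3 and 45.3 FPKM with RSL3, against 55.9, 55.5 and 52.0 FPKM with DMSO. The RSL3 libraries lay close together and below all DMSO libraries (log2 fold change -0.32 ± 0.06 SE, adjusted p = 0.0282). It shares 67 exon bases with the antisense gene 1700018A23Rik, and the sources used here do not say whether the authors counted by strand.

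Ndufa10 (ENSMUSG00000026260.12, chromosome 1, 92439010 to 92473860, minus strand), an accessory subunit of the ND2 module, had the smallest p of the complex I genes. Its values were 32.2, 33.8 and 33.5 FPKM with RSL3, against 42.2, 41.0 and 40.8 FPKM with DMSO. Both groups were tight and did not overlap (log2 fold change -0.31 ± 0.06 SE, adjusted p = 0.0220). Ndufs8 (ENSMUSG00000059734.6, chromosome 19, 3908863 to 3912774, minus strand) is a core subunit of the Q module that holds a pair of iron-sulfur clusters. It stood at 25.8, 28.0 and 26.5 FPKM with RSL3, against 33.7, 33.3 and 31.6 FPKM with DMSO (log2 fold change -0.29 ± 0.06 SE, adjusted p = 0.0431). The groups did not overlap. All 4 genes stayed below 0 in every setting run. Each lost its call without RSL3 replicate 3 and without each DMSO replicate in turn, at adjusted p between 0.0764 and 0.198. Other scalings ended 3 of the calls. For Ndufs8 the adjusted p was 0.0878 after quantile normalization, 0.0818 with equal nuclear sums and 0.0506 with median-ratio scaling. The adjusted p of Ndufa10 was 0.0557 with quantile normalization and that of Ndufa9 0.0518 with equal nuclear sums, while Ndufb8 passed with all 3 scalings.

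**Figure D2:**
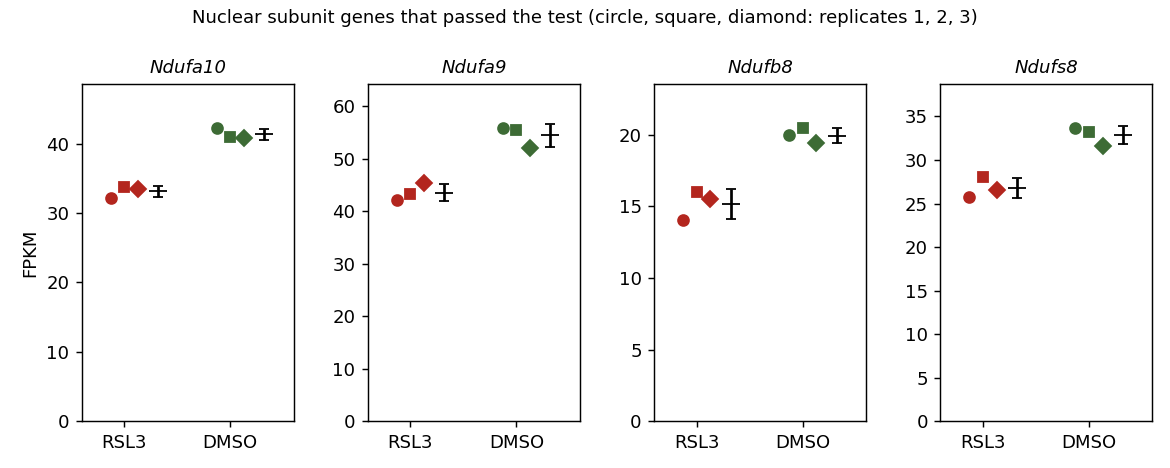
FPKM (y axes, from 0) of Ndufa10, Ndufa9, Ndufb8 and Ndufs8 in each library, RSL3 left of DMSO, with mean ± SD of 3 libraries beside the points. In each gene the 3 RSL3 libraries lie below the 3 DMSO libraries; Ndufa9 averages 43.6 FPKM with RSL3 and 54.5 FPKM with DMSO.

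The promoters of these 4 genes are shown because they are the nuclear subunit genes that passed the test. The windows are RefSeq sequence of GRCm38.p6, the 250 bases before the start in RefSeq, 5′ to 3′ on the strand of the gene. They cover chr19:44555443-44555692 for Ndufb8, chr6:126849145-126849394 for Ndufa9, chr1:92473759-92474008 for Ndufa10 and chr19:3912775-3913024 for Ndufs8, all on the minus strand. The GENCODE gene of Ndufa10 starts upstream of the RefSeq start and reaches into the window, as does that of Ndufs5, shown after these.
Ndufb8: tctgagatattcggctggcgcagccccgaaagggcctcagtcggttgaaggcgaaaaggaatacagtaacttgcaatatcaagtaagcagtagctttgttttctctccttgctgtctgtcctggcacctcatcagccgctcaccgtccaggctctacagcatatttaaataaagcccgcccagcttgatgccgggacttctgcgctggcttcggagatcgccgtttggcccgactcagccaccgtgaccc
Ndufa9: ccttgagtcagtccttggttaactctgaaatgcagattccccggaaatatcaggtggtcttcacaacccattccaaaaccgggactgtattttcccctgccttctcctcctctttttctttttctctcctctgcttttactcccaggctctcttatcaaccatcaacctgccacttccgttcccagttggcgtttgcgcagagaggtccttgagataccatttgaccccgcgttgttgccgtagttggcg
Ndufa10: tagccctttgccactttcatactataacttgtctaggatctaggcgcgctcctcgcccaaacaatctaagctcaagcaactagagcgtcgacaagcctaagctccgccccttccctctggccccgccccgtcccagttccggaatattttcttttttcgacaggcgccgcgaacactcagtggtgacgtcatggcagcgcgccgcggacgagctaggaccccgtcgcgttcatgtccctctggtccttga
Ndufs8: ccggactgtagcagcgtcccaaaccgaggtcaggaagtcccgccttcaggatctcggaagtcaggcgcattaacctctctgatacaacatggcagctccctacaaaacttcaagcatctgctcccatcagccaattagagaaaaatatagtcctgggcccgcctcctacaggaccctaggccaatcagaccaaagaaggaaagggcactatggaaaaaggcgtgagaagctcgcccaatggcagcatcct
Each window was searched on both strands for 3 short motifs of factors known to act on respiratory genes. They were the 10-base consensus of NRF1, CCGGAAG for the ETS family to which GABPA belongs, and AANATGGCG for YY1; none of them was found in these 4 windows. Ndufs5, an accessory subunit of the ND2 module, was chosen after its values were seen, as an example with a motif. Its log2 fold change was -0.31 ± 0.09 SE (adjusted p = 0.0880), and all RSL3 libraries lay below all DMSO libraries. Its window holds an NRF1 motif 98 bases before its start (chr4:123718187-123718436, minus strand), printed in capitals.
Ndufs5: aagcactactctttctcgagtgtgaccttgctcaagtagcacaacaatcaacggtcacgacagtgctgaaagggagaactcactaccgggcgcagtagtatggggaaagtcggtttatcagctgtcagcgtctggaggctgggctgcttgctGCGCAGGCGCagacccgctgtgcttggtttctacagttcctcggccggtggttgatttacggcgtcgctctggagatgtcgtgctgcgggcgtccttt
Of the 38 nuclear subunit genes, 33 had a window in the table. The NRF1 motif was found in 6 of them (18.2%), the ETS motif in 3 (9.09%) and the YY1 motif in 2 (6.06%). Among 8270 tested mRNA genes with a window the shares were 10.3%, 17.4% and 2.79%, and among all 27025 genes with a window 4.23%, 7.83% and 1.29%. The Ndufa5, Ndufb4, Ndufa8, Ndufa11 and Ndufs6 windows held the other NRF1 motifs, and the log2 fold changes of these 5 genes ran from -0.47 for Ndufa5 to -0.041 for Ndufa8. A motif match is a string of letters, and a window without one says only that these letters are not there.

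In the N module, which takes up the electrons of NADH, 0 of 10 genes passed (against 6.38% of all tested genes) and the median was -0.057. Ndufv1 encodes the core subunit that carries the flavin and the NADH site. It stood at 20.0, 19.6 and 18.9 FPKM with RSL3, against 19.7, 19.9 and 20.1 FPKM with DMSO. The groups overlapped, and the 95% interval of the log2 fold change ran from -0.17 to 0.11. Ndufv2, a core subunit with an iron-sulfur cluster, varied much more, at 31.4, 49.0 and 37.4 FPKM with RSL3, against 40.9, 40.8 and 37.5 FPKM with DMSO. RSL3 replicates 1 and 2 lay on opposite sides of the DMSO libraries.

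Ndufs1, the largest core subunit of the matrix arm, stood at 9.80, 12.2 and 11.5 FPKM with RSL3, against 13.7, 14.2 and 13.5 FPKM with DMSO. The groups did not overlap, and the gene did not pass (log2 fold change -0.29 ± 0.09 SE, adjusted p = 0.102); it passed with length and GC trends removed (adjusted p = 0.0237). Ndufa12, an accessory subunit added late, had the lowest log2 fold change of the nuclear subunits, -0.51 ± 0.14 SE (adjusted p = 0.0733). Its values were 53.7, 64.5 and 49.7 FPKM with RSL3, against 71.5, 96.3 and 74.0 FPKM with DMSO, with DMSO replicate 2 well above the rest. Without RSL3 replicate 2 Ndufa12 passed (adjusted p = 0.0493). Without DMSO replicate 2 its log2 fold change was -0.38 (adjusted p = 0.201), and without RSL3 replicate 3 it was -0.43 (adjusted p = 0.203). The highest level in the module was that of Ndufa6, which binds the mitochondrial acyl carrier protein, at 81.3 to 104 FPKM with RSL3 and 90.2 to 99.0 FPKM with DMSO (adjusted p = 0.864).

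In the Q module 1 of 5 genes passed, Ndufs8, which fell (20%, against 3.92% of all tested genes falling). Ndufs7, which holds the last iron-sulfur cluster before ubiquinone, stood at 31.5, 27.8 and 30.0 FPKM with RSL3, against 28.8, 30.9 and 28.9 FPKM with DMSO. The 95% interval of its log2 fold change ran from -0.16 to 0.17. Ndufs3, another core subunit, stood at 15.1, 21.7 and 20.4 FPKM with RSL3, against 20.4, 22.2 and 22.1 FPKM with DMSO, with RSL3 replicate 1 apart from the other libraries (adjusted p = 0.437). The accessory subunit Ndufa5, chosen after its values were seen, had the second lowest log2 fold change of the nuclear subunits, -0.47 ± 0.15 SE (adjusted p = 0.106). Its values were 25.6, 40.1 and 32.3 FPKM with RSL3, against 46.4, 45.9 and 42.6 FPKM with DMSO; the groups did not overlap. Over the 7 nuclear core subunits the median was -0.18, with 1 falling (14.3%). Over the 29 accessory subunits other than Ndufa4 and Ndufa4l2 it was -0.22, with 3 falling (10.3%). Of all tested genes 3.92% fell.

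Nuclear genes of the membrane arm had similar median log2 fold changes from one module to the next. The medians were -0.22 for 3 ND1 module genes, -0.27 for 5 of the ND2 module, -0.22 for 5 of the ND4 module and -0.22 for 6 of the ND5 module. All 19 of these values lay below 0. With equal nuclear sums or quantile normalization Ndufb9, Ndufc2 and Ndufa8 lay above 0. Ndufa10, Ndufa13, Ndufb4, Ndufb6 and Ndufb8 stayed below 0 with both. The remaining genes of these modules were not followed singly. In the ND1 module Ndufa13, which was first described as the cell death gene GRIM-19, stood at 52.9, 56.1 and 47.6 FPKM with RSL3, against 66.7, 55.9 and 60.0 FPKM with DMSO (adjusted p = 0.194). RSL3 replicate 2 lay just above the lowest DMSO library. Ndufa8 of the same module stood at 71.0 to 77.8 FPKM with RSL3 and 72.8 to 79.9 FPKM with DMSO (adjusted p = 0.757). In the ND2 module the most abundant mRNA was Ndufc2, at 93.9 to 110 FPKM with RSL3 and 97.8 to 105 FPKM with DMSO (95% interval of the log2 fold change -0.21 to 0.15).

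In the ND4 module Ndufb6 had the smallest p, at 56.4, 65.2 and 61.5 FPKM with RSL3, against 71.4, 71.6 and 71.5 FPKM with DMSO. The DMSO libraries were nearly equal and all above the RSL3 libraries (log2 fold change -0.23 ± 0.07 SE, adjusted p = 0.0909; -0.041 with length and GC trends removed). Ndufb4 split the RSL3 group, at 86.6, 55.1 and 55.9 FPKM with RSL3, against 69.3, 72.9 and 73.5 FPKM with DMSO. RSL3 replicate 1 lay above all DMSO libraries and replicates 2 and 3 below them (log2 fold change -0.16 ± 0.17 SE, adjusted p = 0.619). Without RSL3 replicate 1 Ndufb4 passed, at -0.37 (adjusted p = 0.00818). In the ND5 module 4 of 6 genes had RSL3 libraries all below the DMSO libraries (66.7%, against 19.6% of all tested genes). Its most abundant member, Ndufb9, was also the best expressed nuclear gene of complex I, at 198, 167 and 166 FPKM with RSL3, against 192, 185 and 186 FPKM with DMSO. RSL3 replicate 1 was the highest library and the other RSL3 libraries the lowest (adjusted p = 0.555).

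Ndufa11, a membrane subunit outside these modules, stood at 16.8, 13.2 and 14.8 FPKM with RSL3, against 15.8, 15.9 and 15.5 FPKM with DMSO (adjusted p = 0.663). Ndufa4 carries a complex I name but its product is a subunit of cytochrome c oxidase. It stood at 66.0, 55.8 and 51.8 FPKM with RSL3, against 58.9, 61.2 and 51.9 FPKM with DMSO. The groups overlapped fully (log2 fold change 0.0095 ± 0.10 SE, adjusted p = 0.972). Its paralog Ndufa4l2, a hypoxia-induced gene, was the least abundant of the 53, at 0.744 ± 0.105 FPKM with RSL3 and 0.751 ± 0.285 FPKM with DMSO (SD, n = 3 each).

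The FPKM of the 38 nuclear subunit genes summed to 1598, 1625 and 1521 in the RSL3 libraries and to 1799, 1796 and 1730 in the DMSO libraries. These sums did not overlap. As a share of all mRNA FPKM of the library, however, they made up 0.798%, 0.760% and 0.718% with RSL3, against 0.798%, 0.798% and 0.784% with DMSO. On that scale RSL3 replicate 1 lay within the DMSO range and the other RSL3 libraries below it. Single genes were less even in RSL3: the SD of log2(FPKM + 1) between libraries had a median of 0.143 over the tested nuclear subunits with RSL3 and 0.0658 with DMSO. Over all tested genes these medians were 0.140 and 0.0682. Among the 3 RSL3 libraries, replicate 1 was the lowest for 18 of the 37 genes, replicate 3 for 12 and replicate 2 for 7. Over all 10590 tested genes replicate 1 was the lowest for 5698, replicate 3 for 1543 and replicate 2 for 3349.

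Assembly factors showed no common direction. These proteins help to build the complex and are not part of it. None of the 8 Ndufaf genes passed in either direction, against 6.38% of all tested genes. At an unadjusted p under 0.05 there was 1 on each side (12.5% each, against 14.3% of all tested genes lower and 9.86% higher). Of their log2 fold changes 4 lay above 0 and 4 below, with a median of 0.066. Their levels lay at the low end of the complex I genes, with group means of 1.5 to 11.8 FPKM with RSL3 and 1.84 to 12.0 FPKM with DMSO. Of the nuclear subunits, Ndufa4l2, Ndufb2, Ndufab1 and Ndufb5 were lower than the highest of them, Ndufaf8. The median SD of log2(FPKM + 1) between libraries was 0.197 over the Ndufaf genes with RSL3 and 0.0861 with DMSO.

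Ndufaf7, a mitochondrial methyltransferase, stood at 5.46, 5.33 and 5.00 FPKM with RSL3, against 3.77, 4.38 and 4.14 FPKM with DMSO. All RSL3 libraries were above all DMSO libraries, without passing (log2 fold change 0.30 ± 0.08 SE, adjusted p = 0.0826). It passed with equal nuclear sums (adjusted p = 0.0470) and with length and GC trends removed (0.0492). Ndufaf2 is a paralog of Ndufa12, and in human cells its protein holds the place that NDUFA12 takes at the end of assembly. It stood at 3.02, 3.06 and 2.52 FPKM with RSL3, against 4.26, 3.35 and 4.20 FPKM with DMSO. All RSL3 libraries were below all DMSO libraries, without passing (log2 fold change -0.35 ± 0.11 SE, adjusted p = 0.106). Ndufaf2 shares 1955 exon bases with the gene B230220B15Rik on the opposite strand.

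The other 6 Ndufaf genes had groups that overlapped. Ndufaf3, which acts early with Ndufaf4, stood at 4.65, 6.18 and 6.87 FPKM with RSL3, against 5.17, 4.50 and 4.78 FPKM with DMSO. It was 0.23 ± 0.13 SE higher (adjusted p = 0.328) and passed without RSL3 replicate 1, the low library of its group (0.37, adjusted p = 0.0352). Ndufaf4 stood at 1.94, 1.44 and 1.13 FPKM with RSL3, against 1.79, 1.85 and 1.89 FPKM with DMSO (adjusted p = 0.377). Ndufaf1, which acts with Ecsit and Acad9 on the membrane arm, stood at 6.72, 9.21 and 8.69 FPKM with RSL3, against 7.01, 6.91 and 7.69 FPKM with DMSO (adjusted p = 0.466).

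Ndufaf5 hydroxylates the NDUFS7 protein, and Ndufaf8 encodes its partner. Ndufaf5 stood at 4.39, 4.99 and 4.27 FPKM with RSL3, against 6.19, 5.72 and 4.78 FPKM with DMSO (adjusted p = 0.225). Ndufaf8 stood at 14.1, 10.5 and 10.7 FPKM with RSL3, against 12.3, 13.3 and 10.3 FPKM with DMSO (adjusted p = 0.935). Ndufaf6 stood at 7.58, 9.90 and 8.05 FPKM with RSL3, against 7.18, 7.69 and 7.10 FPKM with DMSO (adjusted p = 0.329). In these 3 genes at least 1 RSL3 library lay within the DMSO range. Of 10 further assembly genes with other names, none passed (against 6.38% of all tested genes), and the median was 0.019. In 2 of them the RSL3 libraries all lay below the DMSO libraries (20%, against 19.6% of all tested genes). The Ecsit mRNA, of the same assembly complex as Ndufaf1, averaged 11.2 ± 1.13 FPKM with RSL3 and 14.2 ± 0.567 FPKM with DMSO (SD, n = 3 each; adjusted p = 0.0740). It was named after its values were seen.

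The mitochondrially encoded subunits make up the proton-pumping core of the membrane arm and were the most abundant mRNAs of the complex. Each of the 7 mt-Nd genes exceeded every nuclear subunit gene in mean FPKM over the 6 libraries. None of the 7 passed, against 6.38% of all tested genes. All 7 log2 fold changes lay below 0, with a median of -0.39, and at an unadjusted p under 0.05 there were 4 (57.1%, against 14.3% of all tested genes lower at that level). With length and GC trends removed the median was -0.079 and mt-Nd4l lay at 0.18; quantile normalization gave -0.19. The medians of RSL3 replicates 1, 2 and 3 stood -0.75, -0.060 and -0.42 from the DMSO mean.

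All RSL3 libraries lay below all DMSO libraries in 2 of the 7 (28.6%, against 19.6% of all tested genes lower and 33% in either direction). For mt-Nd2 (chromosome M, 3914 to 4951, plus strand) the values were 348, 650 and 462 FPKM with RSL3, against 836, 696 and 763 FPKM with DMSO. Every RSL3 library lay below every DMSO library, with replicate 2 the closest (log2 fold change -0.69 ± 0.21 SE, adjusted p = 0.0948). For mt-Nd6 (chromosome M, 13552 to 14070, minus strand) they were 705, 1133 and 684 FPKM with RSL3, against 1199, 1162 and 1202 FPKM with DMSO. The DMSO libraries were nearly equal, and RSL3 replicate 2 lay just below them (log2 fold change -0.54 ± 0.18 SE, adjusted p = 0.128). It is the only mt-Nd gene on the light-strand transcript, and its mRNA is known to lack a stable poly(A) tail. Poly(A) selection was part of the library preparation, per the labels' protocols. Its mean over the 6 libraries, 1014 FPKM, was the highest of the complex I genes. In the annotation mt-Nd6 shares 14 bases with mt-Nd5 on the opposite strand. Whether the authors counted by strand is not known, and the part of mt-Nd5 reads in the mt-Nd6 values was not tested.

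In the other 5 mt-Nd genes RSL3 replicate 2 reached the DMSO range. The mt-Nd1 mRNA encodes the subunit next to the ubiquinone site and stood at 591, 863 and 687 FPKM with RSL3, against 1027, 829 and 920 FPKM with DMSO (adjusted p = 0.159). The pump subunit gene mt-Nd5 stood at 486, 752 and 520 FPKM with RSL3, against 753, 734 and 751 FPKM with DMSO (adjusted p = 0.191). The pump subunit gene mt-Nd4 stood at 339, 661 and 501 FPKM with RSL3, against 684, 567 and 602 FPKM with DMSO (adjusted p = 0.381). For each of these 3 genes, RSL3 replicates 1 and 3 were the lowest libraries.

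The short mt-Nd4l gene, which overlaps mt-Nd4 by 7 bases on one transcript, stood at 466, 660 and 581 FPKM with RSL3, against 742, 643 and 682 FPKM with DMSO (adjusted p = 0.220). The lowest level of the 7 and, on the log2 scale, the widest RSL3 spread were those of mt-Nd3, at 76.5, 329 and 253 FPKM with RSL3, against 364, 293 and 307 FPKM with DMSO. RSL3 replicate 1 stood far below every other library (log2 fold change -0.78 ± 0.48 SE, adjusted p = 0.372). Leaving out RSL3 replicate 2, the mt-Nd genes mt-Nd1, mt-Nd2, mt-Nd5 and mt-Nd6 passed (adjusted p from 0.00852 to 0.0459) and the median was -0.58. Leaving out RSL3 replicate 1, none passed and the median was -0.25. The mt-Nd transcripts are 33.0% to 41.1% GC, against a median of 50.0% over all genes of the tables. The deviations of RSL3 replicates 1 and 2 from their group mean followed GC content most, with opposite signs (0.64 and -0.60). The part of GC content in the mt-Nd values was not tested.

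**Figure D3:**
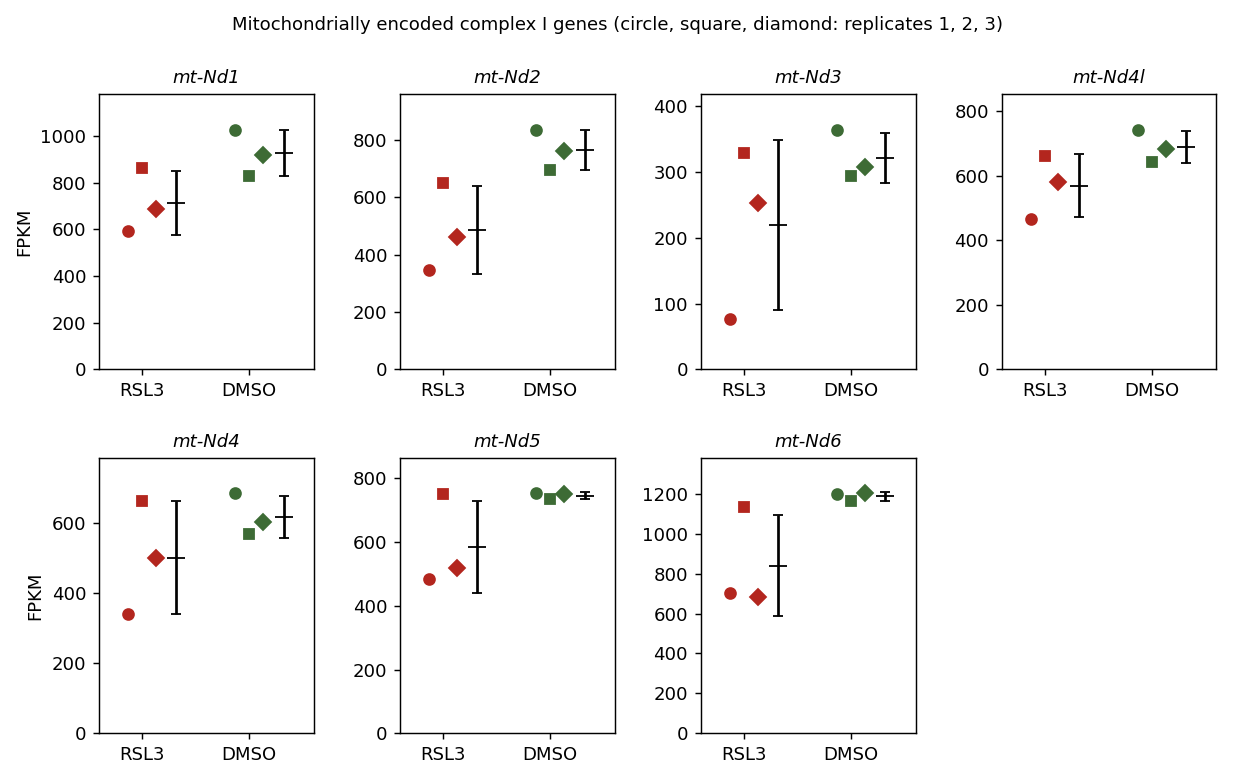
FPKM (y axes, from 0) of the 7 mitochondrially encoded complex I genes in each library, RSL3 left of DMSO, with mean ± SD of 3 libraries beside the points. RSL3 replicate 2 (square) lies near the DMSO libraries in every panel, and RSL3 replicate 1 (circle) is the lowest of the 6 libraries in all but mt-Nd6.

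The mt-Nd genes held 1.5%, 2.36% and 1.74% of all mRNA FPKM in the RSL3 libraries, against 2.49%, 2.19% and 2.37% in the DMSO libraries. RSL3 replicate 2 lay within the DMSO range and the other RSL3 libraries below it. The ratio of summed mt-Nd FPKM to summed nuclear subunit FPKM was 1.88, 3.11 and 2.42 with RSL3, against 3.12, 2.74 and 3.02 with DMSO. It thus spread over 2.47 ± 0.612 with RSL3 and 2.96 ± 0.195 with DMSO (SD, n = 3 each), and the groups overlapped. The difference in share was -0.48 percentage points with all libraries, -0.30 without RSL3 replicate 1 and -0.73 without RSL3 replicate 2. The 6 other mitochondrially encoded mRNAs held 3.17% ± 0.730 of mRNA FPKM with RSL3 and 3.49% ± 0.282 with DMSO (SD, n = 3 each). None of them passed (against 6.38% of all tested genes), and their median log2 fold change was -0.30.

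**Figure D4:**
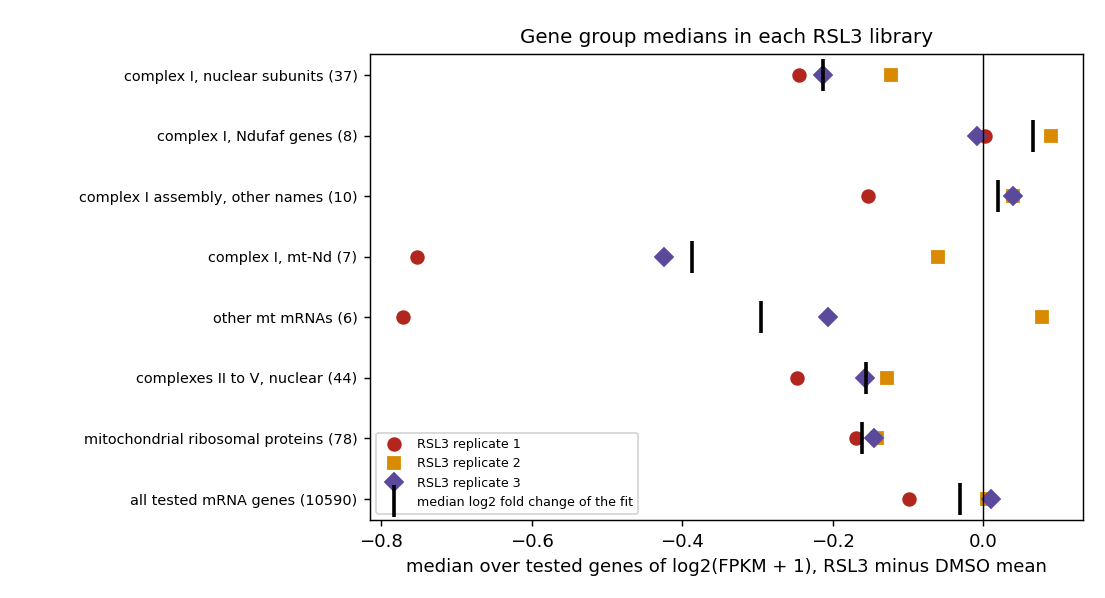
Median over the tested genes of each group of log2(FPKM + 1) in RSL3 replicates 1, 2 and 3 minus the DMSO mean, with the median log2 fold change of the fit as a bar and the number of tested genes in parentheses. Nuclear complex I subunits lie between -0.25 and -0.12 in the 3 libraries and the Ndufaf genes between -0.0082 and 0.089, while the mt-Nd genes spread from -0.75 to -0.060.

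Nuclear genes of the other respiratory complexes gave values close to those of complex I. Of 44 tested genes of complexes II to V, 0 fell and 0 rose (against 3.92% and 2.46% of all tested genes), and the median was -0.16. Of these 39 lay below 0 (88.6%, against 56.4% of all tested genes). In 17 of them (38.6%) the RSL3 libraries all lay below the DMSO libraries, against 40.5% of the nuclear complex I subunits and 19.6% of all tested genes. At an unadjusted p under 0.05 there were 15 lower (34.1%) and 0 higher, against 14.3% and 9.86% of all tested genes. Of 78 mitochondrial ribosomal protein genes 1 fell (1.28%, against 3.92% of all tested genes) and 0 rose (against 2.46%). Their median was -0.16, and in 32 the RSL3 libraries all lay below (41.0%). No difference between complex I and these groups was tested.

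Genes that control or read out the mitochondrial genome did not pass either. Among 29 tested genes of mitochondrial DNA transcription and mRNA handling 0 fell and 0 rose, against 3.92% and 2.46% of all tested genes. Their median was -0.044. At an unadjusted p under 0.05 there were 2 lower (6.9%) and 2 higher, against 14.3% and 9.86% of all tested genes. Among 9 tested regulators of respiratory genes 0 passed, against 6.38% of all tested genes. Of the 9, 8 lay below 0 (88.9%, against 56.4% of all tested genes), with a median of -0.15. Of the 9, 3 were lower at an unadjusted p under 0.05 (33.3%, against 14.3% of all tested genes). They were named after their values were seen. Nrf1 averaged 2.28 ± 0.166 FPKM with RSL3 and 2.93 ± 0.235 FPKM with DMSO (SD, n = 3 each; adjusted p = 0.124). Gabpa averaged 8.79 ± 1.66 FPKM with RSL3 and 11.4 ± 0.614 FPKM with DMSO (SD, n = 3 each; adjusted p = 0.140), and for both genes the groups did not overlap. Gabpb1, which encodes the partner of GABPA, averaged 3.33 ± 0.905 FPKM with RSL3 and 4.67 ± 0.544 FPKM with DMSO (SD, n = 3 each; adjusted p = 0.180).

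Exon overlap limits how far single values can be assigned. In GENCODE M21, 15 of the 38 nuclear subunit genes, 2 of the 8 assembly factor genes and 2 of the 7 mt-Nd genes share exon bases with a gene on the opposite strand. On the same strand 3 nuclear subunit genes and 4 mt-Nd genes do. These are Ndufb9 (201 bases, with Gm49356), Ndufb2 (145, with Gm42420), Ndufb8 (134, with Gm20538) and, by 2 or 7 bases, mt-Nd1, mt-Nd2, mt-Nd4 and mt-Nd4l. The members were not screened for processed pseudogenes, and reads of near-identical copies could have been split between a gene and its copies. Among the 37 tested nuclear subunits the log2 fold change had a Pearson r across genes of -0.25 with log2 length and 0.17 with GC; genes are not independent replicates. Removing both trends over all genes brought the median of these 37 to -0.090, against -0.21 as deposited.

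**Figure D5:**
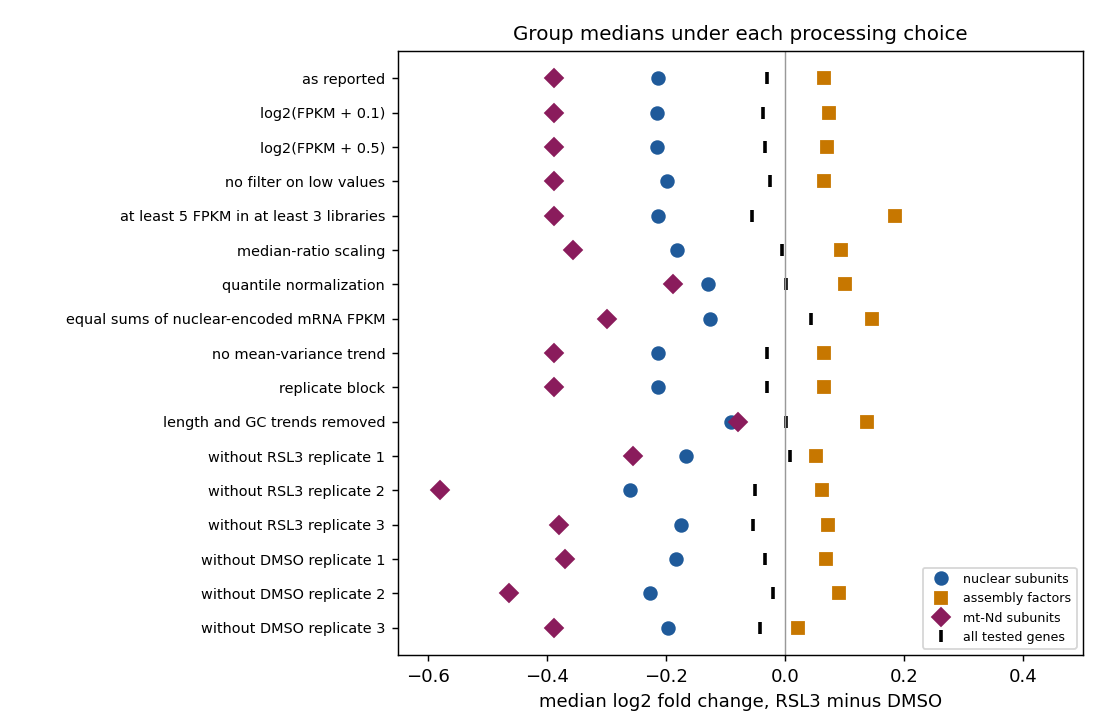
Median log2 fold change (RSL3 minus DMSO) of nuclear subunits, assembly factors, mt-Nd subunits and all tested genes under each processing choice. The nuclear subunit median stays between -0.26 and -0.090 and below the median of all genes in each row, and the mt-Nd median ranges from -0.58 to -0.079.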

How the data were processed

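Messenger RNA was measured in 3 RSL3 and 3 DMSO libraries of N2a cells differentiated with retinoic acid. The deposited mRNA and lncRNA tables hold FPKM, made by the authors with cutadapt, HISAT2, StringTie 1.3.3 and build GRCm38, per the submitters' processing notes. The labels' protocols name a poly(A) selection module and a stranded kit. For the annotation release, strand setting and any filter on low values: not given in the sources used here. Read depth is not given with FPKM, so no counting interval is printed. Of the lncRNA values only a pair of genes is reported, and the circRNA values were not used here.

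RSL3 was compared with DMSO over all genes in limma 3.58.1 (R 4.3.3) on log2(FPKM + 1) with a mean-variance trend, checked on simulated data. Modules and lists were written from general knowledge, and the members and lists were chosen with earlier results of these data known. The text names every gene that passed, all core, Ndufaf and mt-Nd genes, Ndufa4 and Ndufa4l2, and per module the smallest p and the highest level. Among these, 1 gene is counted but not reported here. Other names are given as chosen after their values were seen. Gene positions came from GENCODE M21 (all 53 identifiers found, version numbers ignored) and length and GC content from its longest transcript. Alternatives changed the pseudocount, the filter, the scaling, the variance trend, the libraries used, and removed trends of each library with transcript length and GC content. The replicate numbers state no pairing and were not used as pairs.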

Additional observations from a re-analysis of the deposited data

How the results depend on the processing

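The medians of the nuclear subunits (below 0), assembly factors (above 0) and mt-Nd genes (below 0) kept their sign under every alternative run. The count of falling nuclear subunits, 4 as reported, was 2 with quantile normalization, 2 with equal nuclear sums, 2 without the variance trend and 1 with the replicate block. It ranged from 0 to 7 without single libraries, where all genes called ranged from 137 to 1276. The nuclear median was -0.13 with quantile normalization, -0.13 with equal nuclear sums and -0.090 with length and GC trends removed. The RSL3 minus DMSO difference of summed nuclear subunit FPKM, -193.8 as reported, was -94.3 with quantile normalization and -89.8 with equal nuclear sums. The Ndufaf median was 0.19 at 5 FPKM or more, 0.15 with equal nuclear sums and 0.14 with trends removed; 1 Ndufaf gene passed in each of the last 2, and 0 to 1 without single libraries. Between 0 and 4 mt-Nd genes passed without single libraries. The cause of these shifts was not tested.

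Between an RSL3 and a DMSO library of equal replicate number, the correlation of their deviations over all genes was -0.15, 0.049 and -0.062. These values cannot decide whether the samples were paired, because RSL3 replicates 1 and 2 also deviated with GC content (0.64 and -0.60). With the replicate block the all-gene calls numbered 253, against 676 without it. The only complex I gene called with it was Ndufa12 (adjusted p = 0.0327), and 0.0876 to 0.121 was the range for Ndufb8, Ndufa10, Ndufa9 and Ndufs8.

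Per-gene values under each alternative were computed for the genes named by rule. Those of them whose log2 fold change turned sign were uncalled in both fits, and all but mt-Nd4l (-0.29 as reported) lay within 0.15 of 0 in both. With median-ratio scaling these were Ndufaf8 (0.0047), Ndufc2 (0.0023) and Ndufv1 (0.00084). With quantile normalization they were Ndufa6 (0.078), Ndufa8 (0.046), Ndufaf8 (0.021), Ndufb9 (0.030), Ndufc2 (0.077), Ndufv1 (0.013) and Ndufv2 (0.041). With equal nuclear sums they were Ndufa11 (0.0073), Ndufa6 (0.053), Ndufa8 (0.047), Ndufaf8 (0.057), Ndufb9 (0.0010), Ndufc2 (0.059), Ndufv1 (0.055) and Ndufv2 (0.047). With trends removed they were mt-Nd4l (0.18), Ndufa6 (0.0063), Ndufa8 (0.029), Ndufaf8 (0.054), Ndufb9 (0.013), Ndufc2 (0.15) and Ndufv2 (0.11). Without single libraries the values ranged from -0.15 to 0.049 for Ndufaf8, -0.087 to 0.084 for Ndufa4, -0.13 to 0.051 for Ndufa6, -0.034 to 0.056 for Ndufs7, -0.21 to 0.11 for Ndufv2, -0.10 to 0.012 for Ndufc2 and -0.16 to 0.0028 for Ndufa11. Groups of 3 libraries and an unknown read depth limit what small differences could be called.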

Other observations

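Among the other mitochondrially encoded genes, the values of mt-Atp8 and mt-Atp6, which encode subunits of ATP synthase, moved apart in 1 library. These genes overlap on one transcript: mt-Atp8 spans 7766 to 7969 and mt-Atp6 7927 to 8607 of chromosome M, both on the plus strand. The part of read assignment between the overlapping genes in these values was not tested. The mt-Atp8 values were 284, 1071 and 648 FPKM with RSL3, against 1213, 903 and 1012 FPKM with DMSO. The mt-Atp6 values were 643, 273 and 249 FPKM with RSL3, against 322, 265 and 266 FPKM with DMSO. RSL3 replicate 1 was thus the lowest library for mt-Atp8 and the highest for mt-Atp6. Neither gene passed in limma (adjusted p = 0.283 and 0.621). This pair was chosen after its values were seen.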
